A study of Arabidopsis thaliana with 18 samples.

Results

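The genes described here are those that both NAC factors VND6 and SND1 switched on to similar levels in cultured Arabidopsis thaliana cells, read as 109 of the 22810 probe sets of the Affymetrix ATH1 genome array. They were chosen from the same signals that are described. A probe set is a group of short probes for 1 transcript or a few, and its signal is a linear intensity. Group means were taken with values under 20 set to 20, and a member had means of at least 200 in both VND6 and SND1 cells at 12 h. Each of those means was also at least 6 times the same line's mean at 0 h and at least 4 times the mean in wild-type (wt) cells at 12 h. The ratio of the VND6 to the SND1 mean at 12 h lay between 1/3 and 3. Control probe sets and 6 genes were left out by name, and 4 probe sets of these genes met all the other limits.

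The 6 groups had 3 arrays each, 18 in all. They were cells of the VND6 line 12 h after estrogen was added at 2 µM, VND6 cells at 0 h, SND1 cells at 12 h, SND1 cells at 0 h, wt cells at 12 h and wt cells at 0 h. The estrogen treatment is therefore shared by the 12 h groups of all 3 kinds of cell. In the transformed lines estrogen switches on the factor. The labels do not say whether a line is 1 clone, nor whether the replicates are separate cultures, so p-values measure the spread between these arrays, which may be technical.

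VND6 is a NAC transcription factor known as a switch of vessel element formation in metaxylem, where a patterned secondary wall is deposited and the cell then clears its contents. SND1 is a related NAC factor known for starting secondary wall deposition in fibres. Such a wall is built from cellulose made at the plasma membrane, from xylan and other polysaccharides made in the Golgi apparatus, and from lignin, along tracks and boundaries that cortical microtubules and ROP GTPases help to set.

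Of the 109 members, 58 had exactly 1 gene in the array annotation used, for 58 different loci. A further 1 (260950_s_at) had several and 50 had none, so those are given by probe set ID. The 25 named genes with the highest level in the lower of the 2 induced groups are described by name, and for the top 12 of these the signal on every array is given. Other genes are named for their family or their pattern and were chosen after their values were seen. The named genes lay on chromosomes 1 to 5 in numbers of 19, 7, 6, 9 and 17. TBL34 (AT2G38320) and PRA1.B4 (AT2G38360) lie near each other, with 3 protein-coding genes between them. Levels are not compared between probe sets, since each binds its target differently.

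Arrays of replicate 1 stood apart in all groups. Over the 15715 probe sets that were not dim, Spearman's rho was 0.984 to 0.991 between replicates 2 and 3 of a group. It was 0.872 to 0.958 between replicate 1 and either of them. The labels name 2 labelling kits and do not tie them to arrays. The median signal of an array was 103 to 133, and the number of arrays limits the precision. Markers of phloem and the genes of VND6 and SND1 themselves were not analysed here, so the state of each line rests on its label and on the genes below.

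At 12 h the members had a median group mean of 1250.4 in VND6 cells, against 41.9 at 0 h. In SND1 cells the median was 982, against 38.1 at 0 h. In wt cells it was 56.0 at 12 h and 28.2 at 0 h. The mean in VND6 cells at 12 h was 6.19 to 390 times that at 0 h, with a median of 21.0, and the mean in SND1 cells was 6.08 to 185 times that at 0 h, with a median of 17.9. Over wt cells at 12 h the folds were 4.16 to 390 in VND6 cells (median 14.8) and 4.10 to 359 in SND1 cells (median 11.5). These folds chose the members and are given as a description with no test. In the fit over all probe sets, described with the wt cells below, 109 of 109 members in VND6 cells and 108 of 109 in SND1 cells were higher than in wt cells at 12 h, where 11.0% and 8.91% of all tested probe sets were, and nothing is read from these counts. Where a mean at 0 h or in wt cells was under 20, the fold is a lower bound: 26 members had such a mean in VND6 cells at 0 h, 32 in SND1 cells at 0 h, 27 in wt cells at 12 h, 38 in wt cells at 0 h and 10 in all of these groups.

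**Figure D1:**
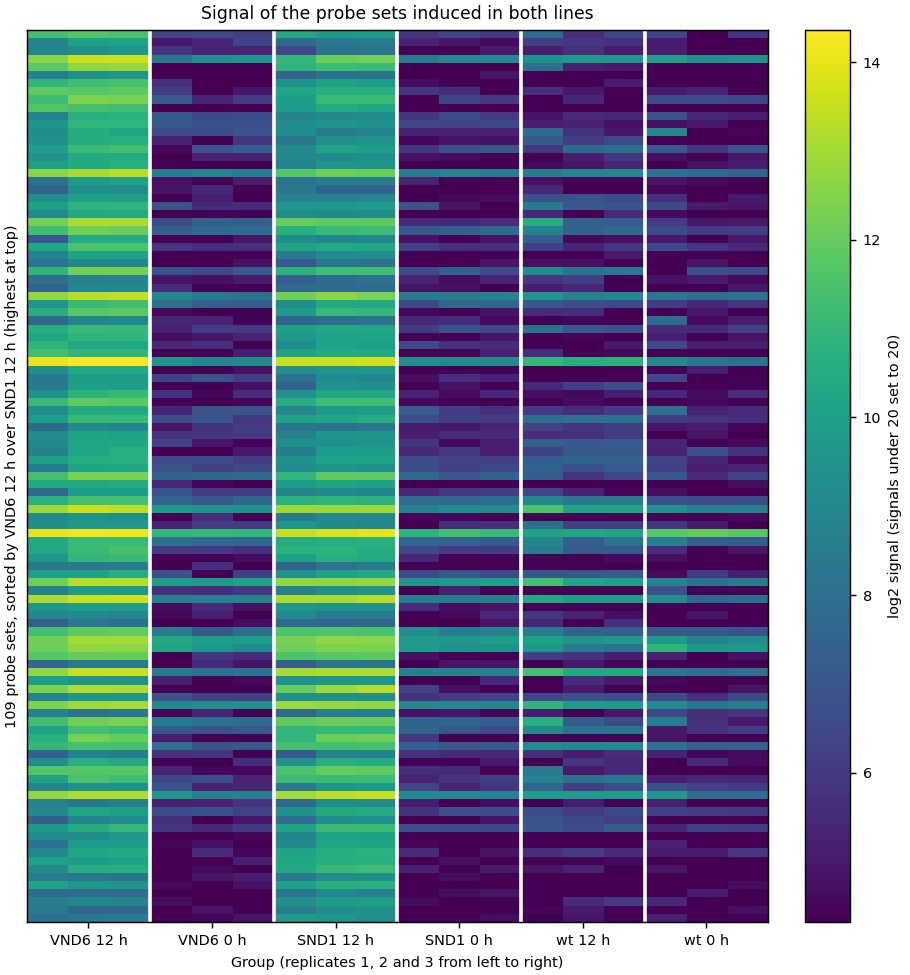
Signal of the 109 members (rows) on each of the 18 arrays (columns, replicates 1 to 3 of each group from left to right), as log2 of the signal with values under 20 set to 20. By the rule, the VND6 and SND1 means at 12 h lie above the 0 h means of the lines and the wt means at 12 h. Single arrays vary more, and the rule sets no limit on wt cells at 0 h. There RALFL24 averaged 175 ± 279, beside 484 ± 139 in SND1 cells at 12 h (SD, n = 3).

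Enzymes that make or modify glycans in the Golgi apparatus or at the cell surface were the largest group of known function, with 14 members. Their folds over 0 h were 8.18 to 290 in VND6 cells (median 19.7) and 6.22 to 109 in SND1 cells (median 15.3), and 12 of the 14 had the higher mean in VND6 cells. The groups by function were assigned after the values were seen. TBL34 (AT2G38320), a TRICHOME BIREFRINGENCE-LIKE protein known to acetylate xylan, had signals of 3599.9, 6641 and 7172 in VND6 cells at 12 h, against 14.2, 12.4 and 3.51 at 0 h. It had 1855, 2397 and 2284 in SND1 cells at 12 h, against 20.4, 5.39 and 1.09 at 0 h, and 263, 36.7 and 32.5 in wt cells at 12 h. Its 12 h means were at least 290.2-fold and at least 109-fold those at 0 h in the VND6 and SND1 lines, since both 0 h means were under 20. All 6 induced arrays stood far above the 0 h arrays of their line, and the 3 VND6 arrays stood above the 3 SND1 arrays.

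AT5G64030, a putative methyltransferase related to QUASIMODO2 of pectin synthesis, had signals of 6686, 11261 and 11706 in VND6 cells at 12 h, against 386, 253 and 297 at 0 h. It had 8445, 9227 and 8698 in SND1 cells at 12 h, against 426, 441 and 422 at 0 h. The wt arrays at 12 h gave 2598, 1424 and 1424. The level in the 2 lines at 12 h was close, with a ratio of 1.12, and the wt arrays lay well below. AT4G19460, of a glycosyltransferase family, had signals of 6897, 9285 and 8969 in VND6 cells at 12 h, against 756, 401 and 396 at 0 h. It had 7951, 10539 and 11538 in SND1 cells at 12 h, against 552, 522 and 459 at 0 h, with 966, 929.8 and 983 in wt cells at 12 h. Here the SND1 mean was the higher one, at a VND6 to SND1 ratio of 0.838.

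GH9B7 (AT1G75680), an endoglucanase of glycosyl hydrolase family 9, had signals of 4742, 10054 and 9801 in VND6 cells at 12 h, against 992, 899.7 and 1116 at 0 h. It had 6554, 6577 and 7053 in SND1 cells at 12 h, against 739, 864 and 1004 at 0 h, with 2644, 1234 and 1044 in wt cells at 12 h. Its arrays were already bright at 0 h, and its folds were 8.18 in VND6 and 7.74 in SND1 cells. AT1G32860, of glycosyl hydrolase family 17, whose members act on beta-glucans, had signals of 2519, 4720.4 and 4326 in VND6 cells at 12 h, against 159, 216 and 231 at 0 h. It had 1624, 2248 and 2359 in SND1 cells at 12 h, against 144, 172 and 229.9 at 0 h, with 409, 172 and 216 in wt cells at 12 h. No induced array of either gene came near an array at 0 h.

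AT5G15050, known as GlcAT14B, which adds glucuronic acid to arabinogalactan proteins, averaged 1856 ± 750.3 in VND6 cells at 12 h and 95.8 ± 30.8 at 0 h (SD, n = 3). In SND1 cells it averaged 1258 ± 213 at 12 h and 82.4 ± 19.9 at 0 h. AT5G59070, another glycosyltransferase family member, was 9.10-fold and 6.22-fold higher at 12 h than at 0 h in the VND6 and SND1 lines. Members of the same group outside the top 25 included AT2G41770, known as a STELLO protein of cellulose synthase assembly, with folds of 15.8 in VND6 and 11.8 in SND1 cells. The group also held AT4G01240 and AT4G00750, putative methyltransferases of the family of AT5G64030, and AT5G50420 and AT1G29200, of the O-fucosyltransferase family. AT5G55950, of the nucleotide-sugar transporter family, and AT5G35740, with a carbohydrate-binding X8 domain, completed it.

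Proteins of the cytoskeleton, of ROP switches and of membrane traffic made up 10 members, with folds of 8.46 to 39.1 in VND6 cells (median 16.9) and 6.17 to 43.4 in SND1 cells (median 8.89). PRA1.B4 (AT2G38360), a prenylated Rab acceptor of vesicle traffic, was first by the naming rule, with signals of 8674, 11631 and 12375 in VND6 cells at 12 h, against 397, 439 and 463 at 0 h. It had 8697, 8534 and 9921 in SND1 cells at 12 h, against 389, 371 and 396 at 0 h, and 1318, 982 and 917 in wt cells at 12 h. AT3G45850, a kinesin-5 motor of microtubules, had signals of 2594, 3856 and 4069 in VND6 cells at 12 h, against 339, 145 and 249 at 0 h. In the other line it had 3004, 3126 and 2858 in SND1 cells at 12 h, against 625, 398 and 434 at 0 h, with 371, 182 and 159 in wt cells at 12 h. Its mean at 0 h was the higher in SND1 cells, and its SND1 fold of 6.17 was close to the limit of 6.

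IQD31 (AT1G74690) and IQD30 (AT1G18840), both of the IQ67 family of calmodulin-binding proteins that associate with microtubules, were members. IQD31 averaged 2386 ± 582 in VND6 cells at 12 h and 179.9 ± 37.8 at 0 h, and 1784 ± 91.0 in SND1 cells at 12 h and 238 ± 13.9 at 0 h (SD, n = 3). IQD30 averaged 1563 ± 675 and 120.1 ± 16.99 in VND6 cells at these times, and 685 ± 66.6 and 86.8 ± 4.16 in SND1 cells. AT3G11490, a GTPase-activating protein that turns ROP switches off, was 19.5-fold higher at 12 h in VND6 cells and 9.49-fold higher in SND1 cells. A second ROP GTPase-activating protein, AT1G08340, had the larger fold in SND1 cells, at least 43.4-fold, beside at least 22.3-fold in VND6 cells. AT1G63300, related to myosin heavy chains, was 26.6-fold and 19.3-fold higher. The kinesin AT4G38950, the tetraspanin TET7 (AT4G28050) and AT5G27490, of the Yip1 family of Golgi traffic proteins, were the others of the group.

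Enzymes of metabolism gave 7 members, with folds of 8.35 to 116 in VND6 cells (median 49.2) and 7.66 to 93.0 in SND1 cells (median 33.1). ACLA-2 (AT1G60810), a subunit of ATP-citrate lyase, which makes cytosolic acetyl-CoA, had signals of 6163, 8497 and 10121 in VND6 cells at 12 h, against 400.03, 471 and 374 at 0 h. It had 3205, 4567 and 4367 in SND1 cells at 12 h, against 382, 477 and 376 at 0 h, with 386, 481 and 512 in wt cells at 12 h. Its VND6 arrays at 12 h reached 2.04 times the SND1 level in the mean. AT2G37540, of the short-chain dehydrogenase family, had signals of 6133, 11889 and 12452 in VND6 cells at 12 h, against 319, 635 and 763 at 0 h. It had 2068, 4413 and 4822 in SND1 cells at 12 h, against 384, 534 and 556 at 0 h, with 705, 832 and 822 in wt cells at 12 h, and at a ratio of 2.70 it was one of the members nearest to the upper limit of 3.

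GSTU25 (AT1G17180), a glutathione transferase of the tau class, had signals of 3269, 3329.9 and 3488 in VND6 cells at 12 h, against 41.2, 22.5 and 23.4 at 0 h. It had 2882, 4095 and 3879 in SND1 cells at 12 h, against 49.97, 47.3 and 19.6 at 0 h, with 347, 31.9 and 45.0 in wt cells at 12 h. Replicate 1 of the wt cells at 12 h stood far above the other two, and these lay within the range of the 0 h arrays of the lines. AT1G75280, related to isoflavone reductases, was 90.6-fold and 33.1-fold higher at 12 h than at 0 h in the VND6 and SND1 lines. The flavin monooxygenase AT5G07800 gave at least 104-fold and at least 64.0-fold, and AT3G49190, of a wax ester synthase-like acyltransferase family, 49.2-fold and at least 61.9-fold. SETH3 (AT3G54690), of the arabinose-5-phosphate isomerase family, had smaller folds of 8.35 and 8.86.

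Regulators and signalling proteins gave 10 members, with folds of 8.25 to 83.8 in VND6 cells (median 13.1) and 6.30 to 54.4 in SND1 cells (median 15.5). The C2H2 zinc finger protein AT5G03510 averaged 1676 ± 764 in VND6 cells at 12 h and 10.7 ± 12.5 at 0 h, and 1350.1 ± 247 in SND1 cells at 12 h and 24.8 ± 15.8 at 0 h (SD, n = 3). IAA20 (AT2G46990), an Aux/IAA protein of auxin signalling, averaged 368 ± 62.9 and 44.7 ± 12.5 in VND6 cells at 12 h and 0 h, and 449 ± 204 and 22.5 ± 14.2 in SND1 cells. PUB26 (AT1G49780), a U-box ubiquitin ligase, had the highest VND6 to SND1 ratio of the named members, 2.79. The protein kinase AT1G24030 had a ratio of 0.438, on the SND1 side. RALFL24 (AT3G23805), a RALF signalling peptide, was the 1 member not called against wt in SND1 cells at 12 h, at a log2 difference of 2.59. The zinc finger protein AT4G16610, the RING protein AT5G17600, the F-box protein AT2G32560, the receptor kinase AT5G48940 and AT5G59845, of the GASA family of small peptides, were the others.

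The remaining 17 named members have no group here. AT5G60530, related to late embryogenesis abundant proteins, had signals of 1692, 4939 and 4073 in VND6 cells at 12 h, against 34.5, 1.88 and 4.59 at 0 h. It had 1934, 4351 and 4699 in SND1 cells at 12 h, against 60.4, 2.02 and 2.06 at 0 h, with 9.996, 3.13 and 2.62 in wt cells at 12 h. The 2 lines reached almost the same mean, at a ratio of 0.975. AT1G23040, of the hydroxyproline-rich glycoprotein family, had signals of 4509, 6754 and 6324 in VND6 cells at 12 h, against 1211, 815 and 596 at 0 h. It had 4514, 5361 and 5267 in SND1 cells at 12 h, against 939, 684 and 704 at 0 h, with 805, 342 and 271 in wt cells at 12 h. AT4G27435 and AT1G52910 share a domain of unknown function and both had more signal in SND1 cells, at VND6 to SND1 ratios of 0.635 and 0.712. Their folds over 0 h were 61.3 and 35.3 in VND6 cells and 64.3 and 46.4 in SND1 cells. AT1G35780, to which no role is given here, was 15.8-fold and 14.7-fold higher at 12 h. The 50 members with no gene in the annotation had folds of 6.19 to 390 in VND6 cells (median 26.9) and 6.08 to 185 in SND1 cells (median 21.0). The probe set for several genes, 260950_s_at, had folds of at least 160.4-fold in VND6 and at least 108-fold in SND1 cells. The highest folds of all members were those of 250322_at in both lines, at least 390.4-fold in VND6 cells and 185-fold in SND1 cells, and it has no gene in the annotation.

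**Figure D2:**
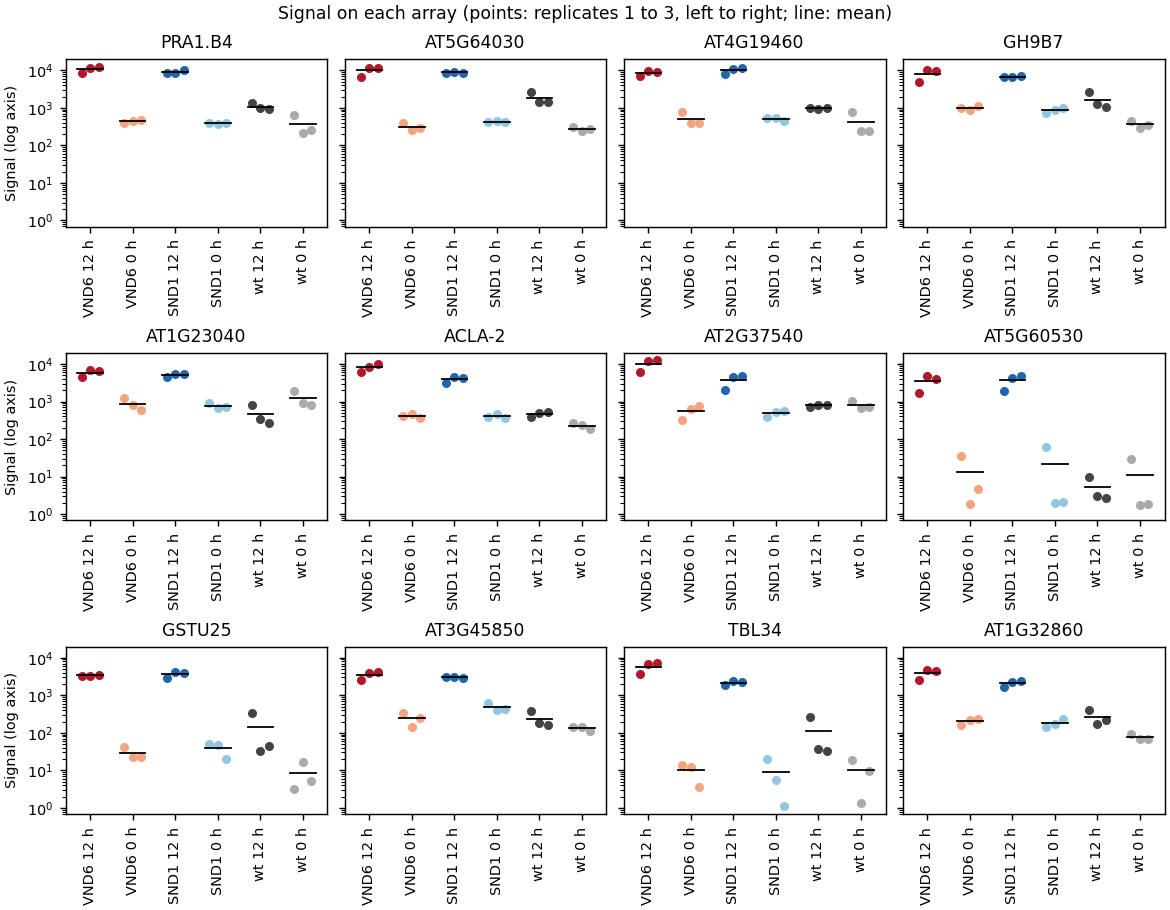
Signal (log axis) of the 12 members described on every array, 1 panel a gene, in the 6 groups, with the 3 replicates as points from left to right and a line at the mean. All VND6 and SND1 arrays at 12 h lie above all arrays of the other 4 groups in each panel.

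Most members had more signal in VND6 than in SND1 cells at 12 h. The VND6 mean was the higher one for 86 of the 109 and the SND1 mean for 23, the ratio ran from 0.414 to 2.86 with a median of 1.38, and 19 members lay above 2 and 2 below 0.5. The 2 were AT5G12050, to which no role is given here, and AT1G24030. For 77 members the VND6 and SND1 arrays overlapped, for 27 all VND6 arrays lay above all SND1 arrays and for 5 below. On the log2 scale used for the fit, the median VND6 minus SND1 difference was 0.41 over the members, and 84 of 109 lay above 0. Over all 15715 tested probe sets the median was -0.10 and 38.2% lay above 0. The rule bounds this ratio and uses both means, so no test is given.

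**Figure D3:**
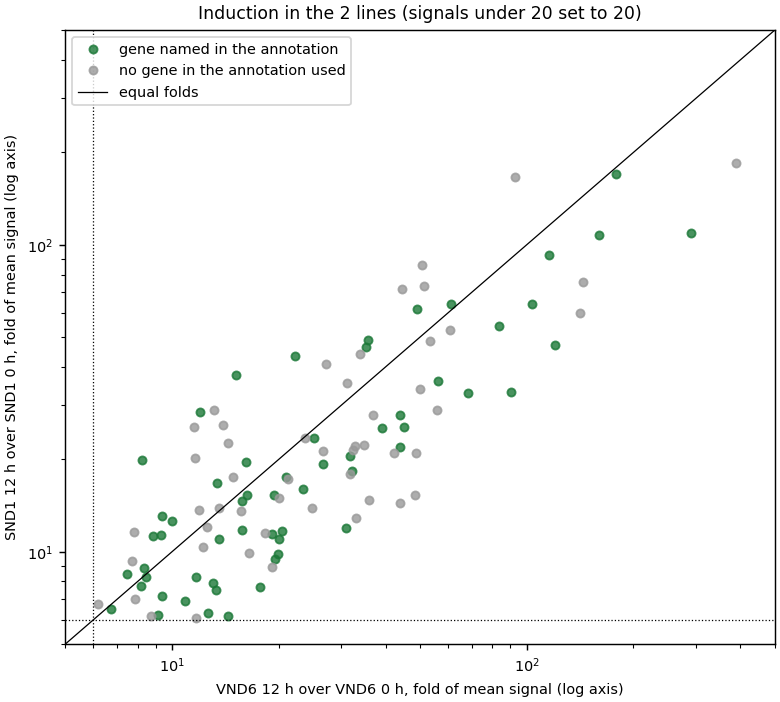
Fold of the 12 h mean over the 0 h mean in VND6 cells (horizontal, log axis) and in SND1 cells (vertical, log axis), 1 point a member, with signals under 20 set to 20 and dotted lines at the limit of 6. The points run along the line of equal folds from 6.19 and 6.08 at the lower ends to 390 in VND6 cells and 185 in SND1 cells. The rule's limits on both folds and on the ratio of the 12 h means favour this, so nothing is read from it.

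Replicate 1 gave lower signals than the other replicates for members in the induced cells. Its median difference from the mean of replicates 2 and 3, on the log2 scale, was -0.78 in VND6 cells at 12 h, where it was over 2-fold lower for 43 of 109 members and over 2-fold higher for 0. Over all tested probe sets in that group the median was 0.12, with 8.42% over 2-fold lower and 10.02% over 2-fold higher. In SND1 cells at 12 h the median over members was -0.46, with 18 over 2-fold lower and 0 higher, and over all tested probe sets it was -0.04, with 3.86% lower and 5.46% higher. In wt cells the members of replicate 1 went the other way, with medians of 0.43 at 12 h and 0.51 at 0 h. Over all tested probe sets these medians were -0.06 and -0.10. In wt cells at 12 h, 31 members were over 2-fold higher and 10 lower, where 7.64% and 7.70% of all tested probe sets were. At 0 h 35 were higher and 6 lower, where 12.9% and 16.6% were. Against the 0 h mean of the line, 94 members were at least 6-fold higher in replicate 1 of VND6 cells at 12 h, and 109 in replicates 2 and 3. In SND1 cells the numbers were 96 in replicate 1, 109 in replicate 2 and 108 in replicate 3. By replicates 2 and 3 alone the rule finds 131 probe sets, of which 104 are members. The role of the labelling kits in this was not tested.

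**Figure D4:**
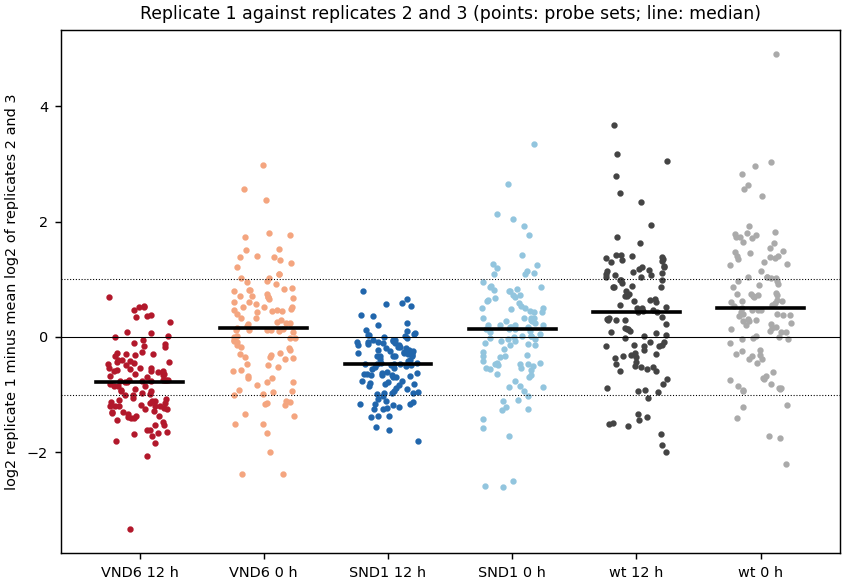
Log2 signal of replicate 1 minus the mean log2 signal of replicates 2 and 3 (vertical) in each of the 6 groups, with 1 point a member, a bar at the median and dotted lines at 2-fold. The medians lie at -0.78 in VND6 cells and -0.46 in SND1 cells at 12 h, and above 0 in the other 4 groups.

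Wild-type cells, which lack the inducible factors, show how the members behaved over the same 12 h with estrogen added. No group was kept for 12 h without estrogen, so estrogen and 12 h of culture cannot be told apart. The rule limits the wt signal at 12 h and does not use the wt signal at 0 h. That limit shapes the shares of members that rose or fell, so nothing is read from how they differ from those of all tested probe sets. In the limma fit, a linear model on log2(signal + 4.32) over the 15715 probe sets that were not dim, with p-values adjusted over all of them, 39 of 109 members (35.8%) rose in wt cells at an adjusted p under 0.05, where 32.1% of all tested probe sets did. A further 6 members (5.50%) fell, where 22.0% of all tested probe sets did, which makes 45 called either way, against 54.1% of all tested probe sets. All 109 members passed the filter on dim signals, through the groups in which they are high. The median wt change on the log2 scale was 0.66 over the members and 0.20 over all tested probe sets, or 0.54 and 0.08 after quantile normalization. All 3 wt arrays at 12 h lay above all 3 at 0 h for 40 members, and below them for 6, where 35.1% and 24.1% of all tested probe sets did so.

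By function, 10 of 14 glycan enzymes and 7 of 10 cytoskeleton, ROP and traffic members rose, with median log2 changes of 1.86 and 1.29. Of the enzymes of metabolism 2 of 7 rose, and of the regulators and signalling proteins 0 of 10, with medians of 0.53 and 0.52. In no group did a member fall. The difference between groups was not tested. GSTU25 had signals of 347, 31.9 and 45.0 in wt cells at 12 h, against 3.23, 16.6 and 5.12 at 0 h, a log2 change of 2.91 (SE 0.63, adjusted p = 0.000981), which was 1.89 without replicate 1 at 12 h and 1.59 in replicates 2 and 3 alone. AT1G35780 had 537, 267 and 288 in wt cells at 12 h, against 31.2, 54.9 and 68.3 at 0 h, a change of 2.71 (SE 0.36, adjusted p = 8.65e-06). The O-fucosyltransferase family member AT5G50420 had 164, 145 and 147 in wt cells at 12 h, against 40.7, 8.08 and 23.6 at 0 h, a change of 2.64 (SE 0.49, adjusted p = 0.000245). These 3 had no overlap between the times, and AT5G64030 behaved likewise, with 2598, 1424 and 1424 in wt cells at 12 h, against 309, 244 and 278 at 0 h and a change of 2.64 (SE 0.25, adjusted p = 2.87e-07). TBL34 had 263, 36.7 and 32.5 in wt cells at 12 h, against 19.2, 1.39 and 9.76 at 0 h, a change of 2.58 (SE 0.71, adjusted p = 0.00579) that was lost when only the wt arrays were fitted. Replicate 1 was its brightest wt array at 12 h, and the change was 1.65 without that array and 2.12 in replicates 2 and 3 alone. These are the 5 largest wt rises among the named members, each tested with limma. The unnamed 255860_at had the largest of all members, 3.84 (SE 0.64, adjusted p = 8.95e-05) by limma, with 121, 94.9 and 74.4 in wt cells at 12 h, against 3.62, 3.21 and 1.27 at 0 h.

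AT1G23040 was the only named member that fell in wt cells. Its signals were 805, 342 and 271 in wt cells at 12 h, against 1908, 904 and 815 at 0 h, a log2 change of -1.40 (SE 0.38, adjusted p = 0.00524) by limma, and this call was lost when only the wt arrays were fitted and when replicates 2 and 3 were averaged. All of its arrays in both lines went the other way over the same time, as the values above show. The other 5 members that fell in wt cells have no gene in the annotation.

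Before estrogen, some members were called between either line and wt cells, and their number depended on the arrays used. Of the 109 members, 10 (9.17%) were higher in VND6 cells than in wt cells at 0 h in the limma fit, where 4.80% of all tested probe sets were, and 1 was lower, where 3.72% were. In SND1 cells 4 (3.67%) were higher, where 1.88% of all tested probe sets were, and 1 was lower, where 0.465% were. The rule uses the 0 h mean of each line and not that of wt cells. It divides by the mean of the line, so it favours probe sets that are dim in the lines at 0 h. The shares called are shaped by this choice, and nothing is read from how they differ from those of all tested probe sets. The median log2 difference from wt was 0.39 for VND6 cells and 0.32 for SND1 cells over the members, and 0.04 and 0.11 over all tested probe sets. Both comparisons share the wt arrays at 0 h.

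IQD30, of the IQ67 family, had signals at 0 h of 139.5, 112 and 108 in VND6 cells, 87.1, 82.5 and 90.8 in SND1 cells and 27.1, 32.7 and 19.4 in wt cells. By limma it was higher than in wt cells by 2.03 (SE 0.30, adjusted p = 0.00119) in VND6 cells and by 1.59 (SE 0.30, adjusted p = 0.0117) in SND1 cells, on the log2 scale. GH9B7 had 992, 899.7 and 1116 in VND6 cells, 739, 864 and 1004 in SND1 cells and 441, 285 and 357 in wt cells, which gave limma log2 differences of 1.48 (SE 0.32, adjusted p = 0.0106) in VND6 cells and 1.27 (SE 0.32, adjusted p = 0.0494) in SND1 cells. The SND1 call of GH9B7 lies at the threshold and was lost under 13 of 16 alternatives. No array of either line overlapped a wt array for these genes, and they were the 2 members called higher in both lines. IQD31 had 198, 136 and 205 in VND6 cells, 239, 224 and 251 in SND1 cells and 115, 97.4 and 97.5 in wt cells and was higher in SND1 cells by 1.17 (SE 0.24, adjusted p = 0.0173), while in VND6 cells its difference of 0.76 (SE 0.24, adjusted p = 0.0586) missed the threshold. The kinesin gene AT3G45850 had 339, 145 and 249 in VND6 cells, 625, 398 and 434 in SND1 cells and 142, 145 and 112 in wt cells, with a limma log2 difference of 1.81 (SE 0.33, adjusted p = 0.00856) in SND1 cells and 0.78 (SE 0.33, adjusted p = 0.153) in VND6 cells. Its SND1 arrays lay above the wt arrays, and 1 VND6 array was level with them.

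In VND6 cells 3 more were among the 5 largest differences called for named members. The unnamed 255860_at had a larger one, 2.42 by limma (SE 0.64, adjusted p = 0.0283), with 53.1, 20.4 and 31.6 in VND6 cells, 1.38, 1.33 and 28.9 in SND1 cells and 3.62, 3.21 and 1.27 in wt cells at 0 h. AT5G55950, the nucleotide-sugar transporter family gene, had 55.0, 58.4 and 63.1 in VND6 cells, 35.5, 45.9 and 46.2 in SND1 cells and 3.42, 28.6 and 8.55 in wt cells at 0 h, a VND6 minus wt difference of 2.09 (SE 0.42, adjusted p = 0.00743). AT1G60010, to which no role is given here, had 129, 69.5 and 73.1 in VND6 cells, 44.7, 62.8 and 71.2 in SND1 cells and 26.6, 13.7 and 8.11 in wt cells, a difference of 2.26 (SE 0.53, adjusted p = 0.0161). The glycosyltransferase gene AT5G59070 had 271, 169 and 164 in VND6 cells, 96.3, 212 and 212 in SND1 cells and 69.2, 45.1 and 58.2 in wt cells, a difference of 1.71 (SE 0.44, adjusted p = 0.0258). All of these signals are dim or moderate, and limma was the test. Each 0 h call of AT5G55950, AT1G60010, AT5G59070, IQD30, IQD31, GH9B7 and AT3G45850 was lost when only the arrays compared were fitted and when replicates 2 and 3 were averaged into 1. Some were lost more often. Of 16 alternatives, AT5G59070 was lost under 7, among them without replicate 1, 2 or 3 of VND6 cells at 0 h. IQD31 was lost under 6, AT1G60010 under 4, IQD30 in SND1 cells under 4 and GH9B7 in VND6 cells under 3. In either direction 11 members were called in VND6 cells, where 8.51% of all tested probe sets were, and 5 in SND1 cells, where 2.34% were. Without single arrays the number called ran from 4 to 27 for VND6 cells, with 27 without wt replicate 1 and 4 without wt replicate 2. For SND1 cells it ran from 1 to 14, with 14 without wt replicate 1, 1 without replicate 3 of wt or of SND1 cells, and 3 without replicate 1 or 2 of SND1 cells. VND6 counts of 5 were found without wt replicate 3 and without VND6 replicate 2 or 3. With replicates 2 and 3 alone the counts were 48 for VND6 cells and 37 for SND1 cells. ACLA-2, the ATP-citrate lyase subunit, had 400.03, 471 and 374 in VND6 cells, 382, 477 and 376 in SND1 cells and 274, 235 and 182 in wt cells at 0 h, with limma log2 differences from wt of 0.85 (SE 0.22, adjusted p = 0.028) in VND6 cells and 0.84 (SE 0.22, adjusted p = 0.0634) in SND1 cells.

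Both 0 h means of the lines entered the rule, so their difference among the members is given as a description and nothing is read from the count. Between VND6 and SND1 cells at 0 h, limma called 0 of 109 members at an adjusted p under 0.05, where 0.0127% of all tested probe sets were called, 0.00636% each way. At an unadjusted p under 0.05 there were 8 members, where 11.1% of all tested probe sets were so. The log2 difference did not go beyond 1.86 in size. With replicates 2 and 3 alone 15 members were called, and in no other alternative was one called.

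**Figure D5:**
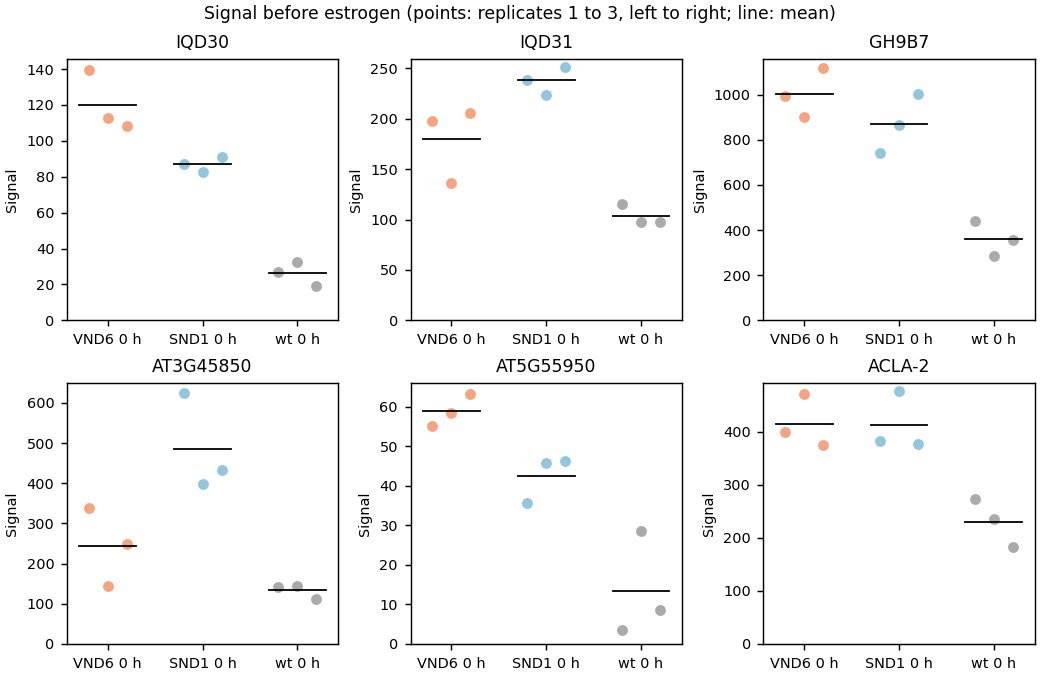
Signal at 0 h of 6 members in VND6, SND1 and wt cells, with the 3 replicates as points from left to right and a line at the mean. For IQD30, GH9B7, IQD31, AT5G55950 and ACLA-2 the arrays of both lines lie above all wt arrays. For AT3G45850 the SND1 arrays do, and a VND6 array is level with the wt arrays. ACLA-2 was chosen after its values were seen.

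At the edges of the rule, the member just inside each limit is set beside the nearest probe set that missed that limit only. The lowest VND6 mean at 12 h of a member was 232 (264071_at), and the nearest probe set outside had 193 (260173_at). For the SND1 mean they were 207 (246389_at) and 199 for GH9B5, an endoglucanase of the family of GH9B7. The smallest fold over 0 h was 6.19 in VND6 cells (254709_at), with 5.30 just outside (259882_at), and 6.08 in SND1 cells (245436_at), with 5.98 just outside (260053_at). Over wt cells the smallest VND6 fold was 4.16 (255860_at), with 3.78 for AT2G28870 outside, and the smallest SND1 fold was 4.10 for GH9B7, with 3.90 for SPK1 outside. SPK1 is an activator of ROP switches. The ratio limit left 250375_at out at 3.11 and kept 249818_at at 2.86, and at the lower end it left 265463_at out at 0.163 and kept AT5G12050 at 0.414. The single limits that alone kept out most probe sets were that over wt in SND1 cells, with 21, and the upper ratio limit, with 20.

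The F-box gene AT2G32560 had a second probe set. That probe set averaged 53.3 in VND6 cells at 12 h and 5.42 at 0 h, and 82.4 in SND1 cells at 12 h and 5.72 at 0 h, so it was higher at 12 h in both lines and stayed under the level of 200. With 0 h means set to 20 its folds are at least 2.66 and 4.12.

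Relatives of the members were read in the same arrays, with families picked after the members were known. Only genes named by symbol in the annotation used could be counted. Relatives among the 8730 probe sets with no gene would be missed, so the counts do not cover whole families. Among tested genes that share a family symbol with a member and are not members themselves, limma called at 12 h against wt 2 of 11 other TBL genes higher and 3 lower in VND6 cells, and 1 higher and 1 lower in SND1 cells. Of 6 other IQD genes, 0 were higher in either line and 1 was lower in VND6 cells. Of 5 other PRA1 genes, 1 was lower in VND6 cells (PRA1.H, -1.04 on the limma log2 scale) and 0 in SND1 cells, and PRA1.B6 was higher in both lines, by 1.54 (SE 0.40, adjusted p = 0.00974) in VND6 cells and 2.03 (SE 0.40, adjusted p = 0.0029) in SND1 cells by limma. Of 7 other PUB genes, 2 were higher in VND6 cells and 1 in SND1 cells, and 0 were lower. PUB25 was higher in both lines, by 4.31 (SE 0.45, adjusted p = 5.73e-06) in VND6 cells and 2.01 (SE 0.45, adjusted p = 0.00766) in SND1 cells by limma. GH9B5, just outside the rule, was the 1 of 4 other GH9 genes called higher, by 3.35 (SE 0.74, adjusted p = 0.00367) in VND6 cells and 3.41 (SE 0.74, adjusted p = 0.00592) in SND1 cells in the same limma fit, and GH9C2 was called lower in VND6 cells, at -0.76. Of 8 other TET genes 1 was higher and 1 lower in VND6 cells, and 3 were higher and 0 lower in SND1 cells, among them TET13 at 4.22 (SE 0.58, adjusted p = 0.000158), while TET13 had 1.31 (SE 0.58, adjusted p = 0.105) in VND6 cells by limma. Of 5 other IAA genes 2 were higher in VND6 cells and 1 in SND1 cells, and 0 were lower. Of 6 other GSTU genes 2 were higher in VND6 cells and 1 in SND1 cells and 0 were lower, and of 3 other RALFL genes 0 were called. Across all tested probe sets 11.0% were higher and 16.0% lower in VND6 cells, and 8.91% higher and 3.86% lower in SND1 cells. This balance turned with the replicates used: it was 433 probe sets higher and 150 lower in VND6 cells with replicates 2 and 3 averaged into 1, and 3257 higher and 4071 lower in SND1 cells with replicates 2 and 3 alone.

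The 10 pathway lists, of which phloem, photosynthesis and reference genes are not lists of wall formation, met the array annotation with 19 of 99 genes, all tested and none a member. DMP4 among them is kept out of the members only by its name. At 12 h against wt, limma called 10 of the 19 higher in VND6 cells and 9 in SND1 cells, and 0 lower in either, where 11.0% and 8.91% of all tested probe sets were higher. With replicates 2 and 3 averaged into 1, these counts were 4 and 5. Of 4 xylan genes 3 were called higher than in wt cells in both lines. IRX10, of the xylan synthase complex, averaged 299 in VND6 cells and 390.3 in SND1 cells at 12 h, against 119 in wt cells. IRX15, needed for xylan of normal chain length, averaged 56.7, 595 and 2.41 in these groups. Its relative IRX15L was also called higher in both, while IRX10L passed in neither. Of 3 lignin genes, the peroxidases PRX72 and PRX66 were higher in VND6 than in wt cells, by 7.57 (SE 0.58, adjusted p = 2.29e-07) and 2.60 (SE 0.46, adjusted p = 0.000739) by limma. HCT of monolignol synthesis was higher in SND1 than in wt cells, by 1.14 (SE 0.29, adjusted p = 0.0172) in the same limma fit.

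Of 7 cell death genes SCPL48, PASPA3 and DMP4 were higher than in wt cells at 12 h in both lines, and the rule leaves these out by name. Their wt means were lower at 12 h than at 0 h, at 839 against 4582, 20.2 against 76.8 and 23.0 against 77.0. PASPA3 averaged 95.7 in VND6 cells at 12 h and 47.9 at 0 h. The zinc finger gene C3H14, known downstream of the NAC switches, was higher than in wt cells at 12 h in the limma fit. The difference was 2.71 (SE 0.70, adjusted p = 0.01) in VND6 cells and 3.13 (SE 0.70, adjusted p = 0.00755) in SND1 cells by limma. KIN13A, a kinesin of wall patterning, was higher by 1.40 (SE 0.23, adjusted p = 0.000371) and 1.41 (SE 0.23, adjusted p = 0.000614) in these lines by limma. The photosynthesis gene RCA and the reference genes TIP41-LIKE and SAND were called in neither line. These 3 are among the 19. No gene of the NAC, cellulose or phloem lists had a probe set named in the annotation used, so none could be read by name. Probe sets with no gene in the annotation were tested too, so whether such genes are among the members cannot be read here.

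Genes that mainly 1 factor induced, with a ratio of the lines over 3, were set beside the members by their wt level. The wt mean at 12 h was under 20 for 27 of 109 members (24.8%), for 33 of 84 probe sets induced mainly by VND6 (39.3%) and for 16 of 44 induced mainly by SND1 (36.4%). At 0 h the shares were 34.9%, 47.6% and 45.5%. The difference between these shares was not tested, since the rules use the wt mean at 12 h.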

How the data were processed

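RNA of the cells was labelled with biotin and hybridised to the arrays, as the labels' protocols state. The intensity values used were deposited by the authors, with 1 linear signal for each probe set on each array. Per the submitters' processing notes they come from GCOS, whose version and algorithm were not given in the sources used. The 2% trimmed mean was about equal on all arrays, and the table was therefore taken as already scaled and left unchanged. Such scaling assumes that most transcripts do not move, and dim signals are noisy.

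Probe sets were named from the array annotation (13513 with 1 gene, 503 with several, 8730 with none), and 13436 matched the RefSeq annotation of assembly TAIR10.1, used for names and gene order only. Values were transformed as log2(signal + 4.32), where 4.32 is the 10th percentile of all values. Probe sets reaching the 40th percentile of their own array on at least 3 arrays were tested, 15715 in all. One limma model (version 3.58.1, R 4.3.3) of the 6 groups was fitted to the 18 arrays, using lmFit and eBayes with the trend on mean intensity. The 2-sided p-values were adjusted by Benjamini-Hochberg within each contrast, with calls under 0.05. The procedure was tested on simulated data. Contrasts in which the rule used both groups (each line against its own 0 h, against wt cells at 12 h or against the other line) are descriptions only for the members. Of wt cells at 12 h against 0 h, and of each line against wt cells at 0 h, the rule used the first group and not the second. These were tested, but the rule's limit on the first group shapes the share of members called. That share is therefore no test of the members as a set.

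Genes were named by rule: the 25 named members with the highest value of the lower induced mean, values on every array for the top 12, up to 5 called named members each way in each tested contrast, those at the edges of the rule, and up to 4 genes of each of the 10 pathway lists (99 genes). The members and lists were chosen with earlier results of these data known.

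Whether replicate numbers mark pairs was checked by whether the deviations of same-numbered arrays correlated over 0.1 in every pair. That held in wt cells over time (0.255 to 0.380), for SND1 and wt cells at 0 h (0.304 to 0.486) and at 12 h (0.228 to 0.451), and for VND6 and SND1 cells at 0 h (0.245 to 0.398). It did not hold for VND6 and wt cells at 0 h (0.0230 to 0.186) or at 12 h (0.0918 to 0.172). Even where it held, the fit reported took no account of pairs, and the replicate block was run only as an alternative. Alternatives were quantile normalization, 2 other filters, 2 other pseudocounts, no intensity trend, only the arrays compared, the replicate block, replicates 2 and 3 alone or averaged, and each array left out.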

Additional observations from a re-analysis of the deposited data

Results flagged for a closer look

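For 6 members all wt arrays were lower at 12 h than at 0 h while all arrays of both lines were higher at 12 h than at 0 h. The difference between wt and the lines was not tested, since the rule used the signals of the lines. The log2 changes in wt cells were -1.40 for AT1G23040, the hydroxyproline-rich glycoprotein family gene, -1.60 for 247720_at, -2.30 for 247586_at, -1.89 for 263689_at, -1.35 for 252006_at and -2.43 for 245436_at. The changes of AT1G23040 were 2.78 in VND6 cells and 2.71 in SND1 cells. For 247586_at they were 5.67 in VND6 cells and 5.29 in SND1 cells, and for 263689_at 5.55 and 3.76. The probe set 247720_at was also the member called lower than wt at 0 h in both lines, by -0.83 in VND6 cells and -0.72 in SND1 cells on the log2 scale.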

How the results depend on the processing

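Called named members, up to 5 each way in each tested contrast, were followed through the alternatives, and none of their log2 changes turned its sign. Other genes given with values were not followed in this way. The balance of probe sets called at 12 h against wt did turn. In VND6 cells it was 1732 higher and 2521 lower in the fit reported, and 433 and 150 with replicates 2 and 3 averaged. In SND1 cells it was 1400 higher and 606 lower, and 3257 and 4071 with replicates 2 and 3 alone, and 1904 and 1553 with only the arrays compared. With replicates 2 and 3 alone, members called at 0 h numbered 48 in VND6 and 37 in SND1 cells against wt (11 and 5 in the fit reported) and 15 between the lines (0), and probe sets called at 12 h against wt numbered 9614 in VND6 and 7328 in SND1 cells (4253 and 2006). With those replicates averaged the same counts were 0, 0, 583 and 283, with 4 and 5 list genes (10 and 9). Fitting only the arrays compared gave 0 members at 0 h in either line and 3457 probe sets in SND1 cells at 12 h. Quantile normalization, no filter and no intensity trend each gave 3 members in SND1 cells at 0 h. The causes were not tested. The replicate block gave 45 members in wt cells, 14 and 6 at 0 h in VND6 and SND1 cells, 0 between the lines, and 5040 and 2615 probe sets at 12 h; of the named calls it changed only that of GH9B7 in SND1 cells at 0 h. Leaving out each array gave 39 to 48 members in wt cells (45), 4 to 27 and 1 to 14 at 0 h in VND6 and SND1 cells, and 0 to 0 between the lines. It gave 2433 to 5253 and 1078 to 2385 probe sets at 12 h in VND6 and SND1 cells, and 9 to 10 and 8 to 9 list genes. The lowest counts came without VND6 replicate 2 or 3 (2433, 2504) or wt replicate 2 or 3 (2664, 2589) for VND6 cells. For SND1 cells they came without wt replicate 2 or 3 (1134, 1078) or SND1 replicate 2 or 3 (1108, 1124). The rule found 96 to 131 probe sets without 1 replicate number, 111 after quantile normalization (104 shared), 129 with medians (104 shared), 96 with a floor of 50 and 109 with a floor of 5. Near the floor of 20 the folds are bounds.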
